A study of Mus musculus with 6 samples.

Results

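Trp53, the gene that encodes the tumor suppressor p53, and 9 genes that act with it in the cellular stress response were examined in RNA-seq libraries of mouse mammary epithelial cells (MEC) and of JNK-deficient mammary tumor cell lines (ME-KO). The 10 members were chosen by symbol among the 37755 entries of the expression table, and where a symbol stood on several entries the one with the greatest mean was taken. All 10 had a mean of at least 1 FPKM (fragments per kilobase of transcript, scaled to the mapped fragments of a library) over the 6 libraries and were among the 12461 genes tested. The 3 MEC libraries were made from primary cultures of WAPCre+ C57/Bl6J females, each from 3 to 5 virgin mice 10 to 12 weeks old, grown on collagen I. The 3 ME-KO libraries came from 3 established lines, 199, 233 and 336, from tumors of mice of the same strain that carried Cre under the Wap promoter and both floxed Mapk8 and Mapk9, the genes for JNK1 and JNK2. Cre was thus present in both groups, and Wap-Cre acts in luminal cells at lactation. Each line is 1 tumor, was passaged from collagen to plastic and was sequenced once, whereas MEC were primary cells of virgin mice, so that genotype, tumor origin, parity and culture changed together and cannot be told apart.

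The p53 protein is a transcription factor that is held at a low level by Mdm2, a ubiquitin ligase, and by its partner Mdm4. DNA damage, oncogene activity and other stresses release p53 from them, and p53 then activates genes that halt the cell cycle, aid repair, restrain growth signaling or start apoptosis. Its control is mostly of the protein, so the level of Trp53 mRNA is not a measure of p53 activity, whereas Mdm2 is itself a p53 target and forms a feedback loop. No protein was measured here.

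p53 binds pairs of a decamer that reads alike on both strands, and such pairs are known near the start of several targets. RefSeq promoters (GRCm38.p6, 250 bases before to 50 bases after each start) were found for 8 of the 10 members, with 10 promoters in all, and none was matched for Zmat3 and Trp53inp1. They were searched for pairs of the p53 consensus decamer with at most 2 mismatches over 20 bases and a gap of at most 13 bases. A pair was found in 2 members, Ccng1 and Sesn1, and 4.09% of all 32851 promoters held one. The 2 promoters are shown because they are the windows among the members in which a pair was found, with the decamers in capitals.
Ccng1, chr11:40755237-40755536, minus strand: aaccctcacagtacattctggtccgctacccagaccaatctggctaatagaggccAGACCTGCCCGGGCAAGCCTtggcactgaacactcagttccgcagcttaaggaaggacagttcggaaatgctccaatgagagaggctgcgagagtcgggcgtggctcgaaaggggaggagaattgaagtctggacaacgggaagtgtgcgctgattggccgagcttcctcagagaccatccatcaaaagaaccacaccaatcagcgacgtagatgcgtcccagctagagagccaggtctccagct
Sesn1, chr10:41887189-41887488, plus strand: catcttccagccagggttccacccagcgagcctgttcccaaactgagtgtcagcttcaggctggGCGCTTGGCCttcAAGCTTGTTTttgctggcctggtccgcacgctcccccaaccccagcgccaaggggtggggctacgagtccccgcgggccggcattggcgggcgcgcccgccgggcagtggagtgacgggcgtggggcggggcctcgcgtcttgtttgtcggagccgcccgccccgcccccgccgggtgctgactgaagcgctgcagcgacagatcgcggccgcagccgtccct
The pair in Ccng1 had 1 mismatch and no gap and lay at positions -195 to -176 from the start, and 0.627% of all promoters held a pair with at most 1 mismatch. The pair in Sesn1 had 2 mismatches with a gap of 3 bases, at positions -186 to -164 from the downstream one of the 2 starts in the table. A match describes the sequence only, and elements outside these windows, such as those known in the first intron of Mdm2, were not searched.

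Facts of the libraries as a whole are given first. Mapk8 had a log2 fold change of -2.52 and Mapk9 of -2.17 in ME-KO against MEC (limma adjusted p = 0.0146 and 0.0122). Line 199 kept the most RNA of both genes, 26.4% of the MEC mean of Mapk8 and 33.6% of that of Mapk9. The paper reported by immunoblot that the ME-KO tumor cells it examined lacked JNK protein, so these RNA values are not a measure of JNK protein. Depth relative to MEC 1, read from the smallest values, was between 0.92 and 1.30. The 7 markers of luminal cells summed to between 5446 and 8933 FPKM in MEC and to 793, 2127 and 1568 FPKM in lines 199, 233 and 336, and the luminal genes Elf5 and Kit were below 0.5 FPKM in every line. The 6 basal markers summed to between 1282 and 2243 FPKM in MEC, 1865 FPKM in line 199, 9.92 FPKM in line 233 and 45.1 FPKM in line 336. The 7 fibroblast markers summed to between 98.8 and 190 FPKM in MEC, 1100 FPKM in line 199, 2.40 FPKM in line 233 and 4.22 FPKM in line 336, with Col1a1 at 600 FPKM and Col1a2 at 408 FPKM in line 199. The markers of these lists did not move together in line 199. The fibroblast genes Dcn and Lum (0.311 and 0.0264 FPKM) were below every MEC library there, while Col1a1, Col1a2, Col3a1, Pdgfra and Pdgfrb were above. The basal genes Oxtr, Myh11 and Acta2 (0.0125, 0.0812 and 719 FPKM) were below every MEC library in line 199. Krt5, Krt14 and Trp63 (608, 521 and 15.6 FPKM) were above. The 5 leukocyte markers summed to at most 23.5 FPKM, in line 336, where Cd68 made up nearly all of it and Cd3e and Ptprc were at 0. The 5 endothelial and adipocyte markers summed to at most 12.8 FPKM in MEC and 0.585 FPKM in the lines.

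**Figure D1:**
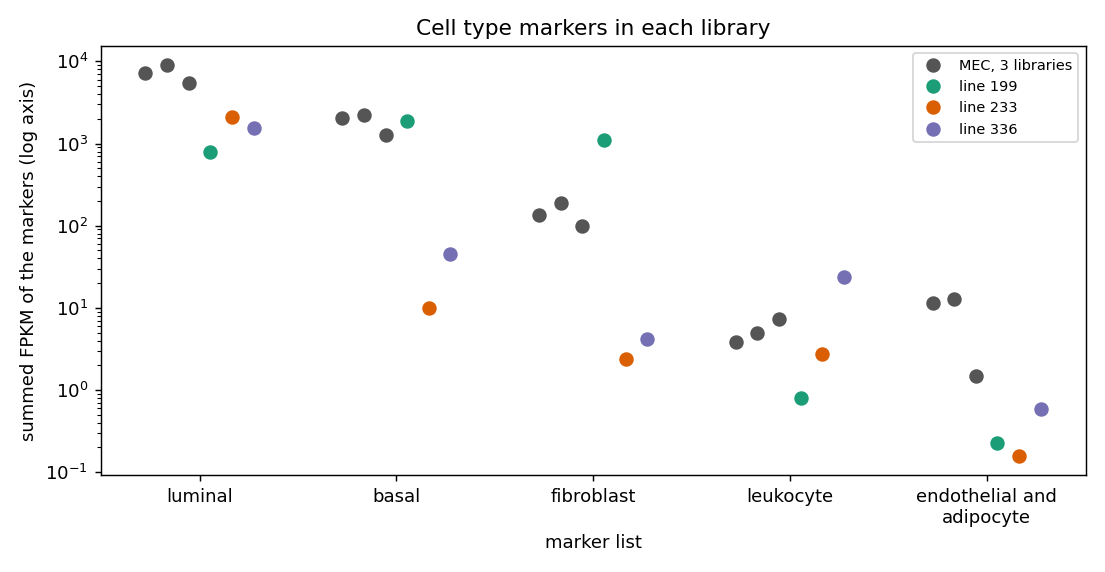
Summed FPKM of 5 lists of cell type markers (log axis) in the 3 MEC libraries and the 3 ME-KO lines, 1 point per library. Line 199 had 1865 FPKM of basal and 1100 FPKM of fibroblast markers, and lines 233 and 336 had at most 45.1 and 4.22 FPKM of these lists.

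Trp53 (chr11:69580359-69591873, plus strand, GRCm38) was expressed in every library, and its difference between the groups did not pass the test. It had 99.6, 101 and 95.6 FPKM in MEC 1 to 3, and 87.4, 134 and 89.4 FPKM in lines 199, 233 and 336. Line 233 was above every MEC library and lines 199 and 336 were below every MEC library, so that the ME-KO lines enclosed the narrow range of MEC. The log2 fold change of ME-KO against MEC, on the log2(FPKM + 1) scale used throughout, was 0.04 with a standard error (SE) of 0.19 (limma adjusted p = 0.913; exact permutation test, two-sided, p = 1.0, where 3 against 3 libraries can give no p under 0.1). The processed pseudogene Trp53-ps, which could share reads with Trp53, was listed at 0 in all 6 libraries. The mRNA of p53 was thus present in every line, and these values say nothing of the sequence of the transcript.

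Mdm2 (chr10:117688875-117710758, minus strand), the ubiquitin ligase that p53 itself induces, varied most among the lines of the 2 inhibitors. It had 51.9, 58.0 and 61.6 FPKM in MEC 1 to 3, and 55.1, 276 and 157 FPKM in lines 199, 233 and 336. Line 199 lay within the MEC range, line 336 had 2.74-fold and line 233 4.83-fold the MEC mean, and the groups overlapped. Between the groups this gave a log2 fold change of 1.22 (SE 0.55, limma adjusted p = 0.207; exact permutation p = 0.3). Without line 199 it was 1.85 and passed the test (limma adjusted p = 0.00999), and without line 233 it was 0.70 (limma adjusted p = 0.365).

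Mdm4 (chr1:132959484-133030561, minus strand), which binds p53 and blocks its activation domain, was the lower expressed of the pair. It had 8.91, 7.49 and 9.44 FPKM in MEC 1 to 3, and 10.1, 18.6 and 11.6 FPKM in lines 199, 233 and 336. All 3 lines were above all 3 MEC libraries, line 199 by little and line 233 by the most. Its log2 fold change of 0.55 (SE 0.25) did not pass the test (limma adjusted p = 0.209; exact permutation p = 0.1), and it was 0.31 without line 233.

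**Figure D2:**
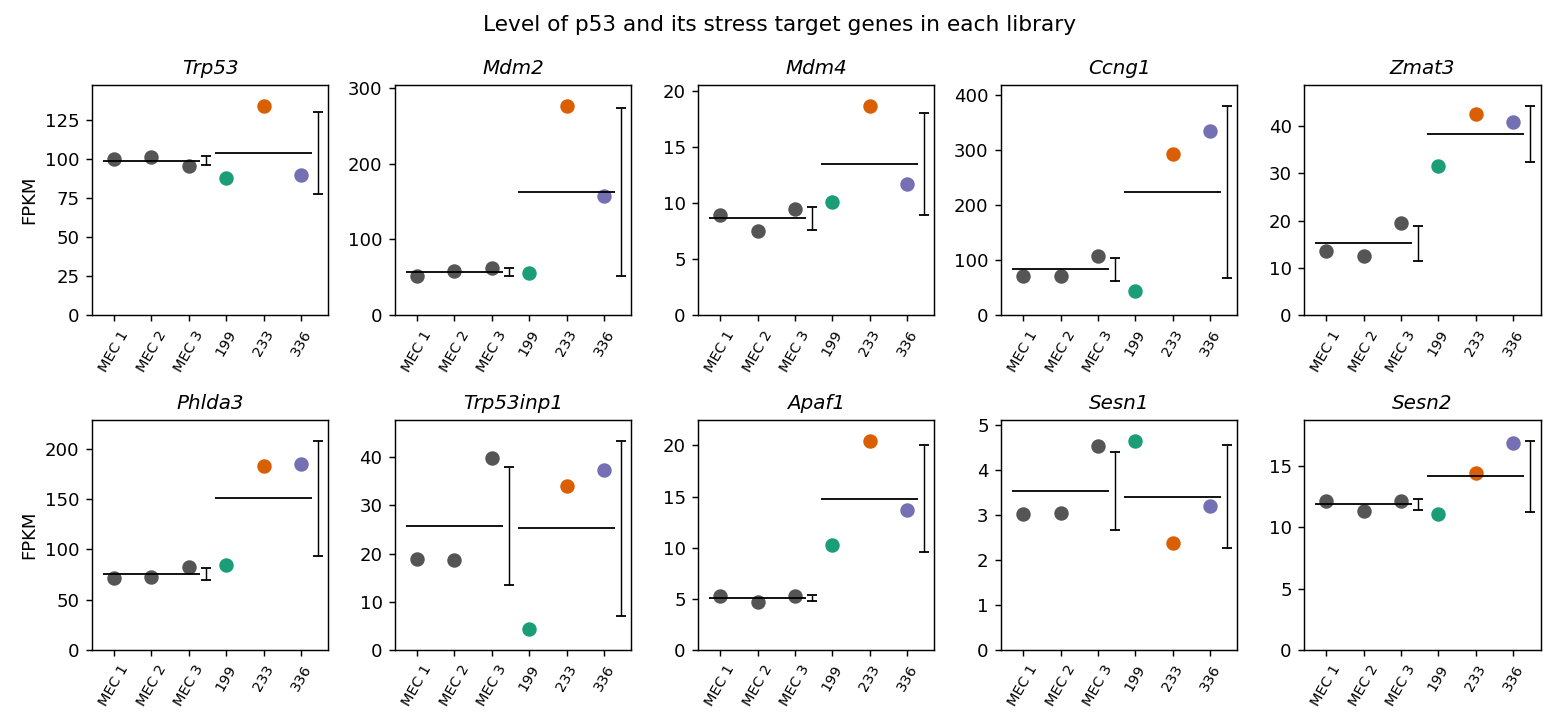
FPKM (linear axis from 0) of the 10 genes in MEC 1 to 3 and lines 199, 233 and 336, 1 point per library, with the mean of each group as a horizontal line and its SD as a bar beside the group. Zmat3 and Apaf1 were higher in all 3 lines, and Mdm2 and Ccng1 were high in lines 233 and 336 but not in line 199, at 55.1 and 44.8 FPKM.

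Ccng1 (chr11:40748552-40755311, minus strand) encodes cyclin G1, which recruits the phosphatase PP2A to Mdm2, and its promoter holds the pair of decamers shown above. It had 71.8, 71.8 and 108 FPKM in MEC 1 to 3, and 44.8, 292 and 334 FPKM in lines 199, 233 and 336. Line 199 was below every MEC library and the other lines were far above them, at 3.49-fold and 3.99-fold the MEC mean. With the lines on both sides of MEC, the log2 fold change of 0.99 (SE 0.76) did not pass the test (limma adjusted p = 0.433; exact permutation p = 0.4). Without line 199 it was 1.91 and passed (limma adjusted p = 0.00602), and it was 0.57 without line 233 and 0.48 without line 336 (limma adjusted p = 0.696 and 0.721).

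Zmat3 (chr3:32334792-32366014, minus strand), a zinc finger protein that binds RNA, was higher in ME-KO. It had 13.7, 12.4 and 19.4 FPKM in MEC 1 to 3, and 31.6, 42.6 and 40.8 FPKM in lines 199, 233 and 336. The groups did not overlap, and the highest line had 1.35-fold the level of the lowest, the smallest such ratio among the members. ME-KO exceeded MEC by a log2 fold change of 1.30 (SE 0.22, limma adjusted p = 0.0182; exact permutation p = 0.1). The call was lost without MEC 1 (log2 fold change 1.24, limma adjusted p = 0.0921) and without MEC 2 (1.17, limma adjusted p = 0.0823).

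Phlda3 (chr1:135766119-135769136, plus strand), a small lipid-binding protein that competes with the growth kinase AKT at the membrane, had 71.9, 72.6 and 82.7 FPKM in MEC 1 to 3, and 84.2, 183 and 185 FPKM in lines 199, 233 and 336. All lines were above MEC, but line 199 exceeded MEC 3 by less than the spread among MEC. A log2 fold change of 0.90 (SE 0.32) did not pass (limma adjusted p = 0.131; exact permutation p = 0.1), and without line 199 it was 1.27 and passed (limma adjusted p = 0.00414). It was 0.72 without line 233 and 0.71 without line 336, and did not pass (limma adjusted p = 0.256 and 0.245).

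Trp53inp1 (chr4:11156431-11174379, plus strand), a nuclear protein that promotes p53-dependent arrest and apoptosis and acts in autophagy, had the widest range relative to its lowest value. It had 18.9, 18.6 and 39.9 FPKM in MEC 1 to 3, and 4.37, 34.1 and 37.3 FPKM in lines 199, 233 and 336. MEC 3 was the highest library of all and line 199 the lowest, with lines 233 and 336 inside the MEC range. Its log2 fold change of -0.38 (SE 0.79, limma adjusted p = 0.783; exact permutation p = 0.8) turned to 0.54 without line 199.

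Apaf1 (chr10:90989311-91082770, minus strand), the scaffold that binds cytochrome c and assembles the apoptosome, was higher in ME-KO. It had 5.31, 4.72 and 5.25 FPKM in MEC 1 to 3, and 10.3, 20.5 and 13.7 FPKM in lines 199, 233 and 336. The groups did not overlap, and every line had at least 2.02-fold the MEC mean. This was a log2 fold change of 1.33 (SE 0.26, limma adjusted p = 0.0270; exact permutation p = 0.1). The call was lost without MEC 1 (limma adjusted p = 0.109), MEC 2 (0.112), MEC 3 (0.0959) or line 336 (0.0601), with a log2 fold change between 1.28 and 1.36.

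Casp9, the caspase that the apoptosome activates, changed in the opposite direction to Apaf1. It had 7.73, 5.88 and 7.89 FPKM in MEC 1 to 3, and 1.95, 2.25 and 3.88 FPKM in lines 199, 233 and 336 (log2 fold change -1.17, SE 0.25, limma adjusted p = 0.0371). Cycs, which encodes cytochrome c and has several processed pseudogenes that could share its reads, had between 31.0 and 37.6 FPKM in MEC and between 36.3 and 42.6 FPKM in the lines (limma adjusted p = 0.498). Of the 9 apoptosome and caspase genes listed, Casp9 was the only one called, where 7.26% of all tested genes were called lower. The median log2 fold change of the list was 0.16, against 0.01 for all tested genes.

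Sesn1 and Sesn2 encode sestrins, which restrain the growth kinase complex mTORC1 under amino acid and oxidative stress. Sesn1 (chr10:41809935-41908424, plus strand), the other member with a decamer pair, had 3.02, 3.06 and 4.53 FPKM in MEC 1 to 3, and 4.66, 2.39 and 3.20 FPKM in lines 199, 233 and 336. It was the one member whose highest library was line 199, and the groups overlapped (log2 fold change -0.06, SE 0.27, limma adjusted p = 0.912; exact permutation p = 1.0).

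Sesn2 (chr4:132492032-132510501, minus strand) had 12.1, 11.3 and 12.1 FPKM in MEC 1 to 3, and 11.1, 14.4 and 16.9 FPKM in lines 199, 233 and 336. Line 199 was just below MEC and the other lines were above (log2 fold change 0.22, SE 0.19, limma adjusted p = 0.480; exact permutation p = 0.4). Sesn3, the third sestrin and not a member, had 13.8, 10.5 and 32.6 FPKM in MEC and 5.92, 3.12 and 1.29 FPKM in the lines, all below MEC, and missed the threshold (log2 fold change -2.15, SE 0.54, limma adjusted p = 0.0543). Among the 19 tested genes of the list of sestrin partners and mTORC1 regulators, 1 was called, Prkaa2, a catalytic subunit of AMPK. It had at least 3.01 FPKM in every MEC library and at most 0.952 FPKM in every line (limma adjusted p = 0.0165). Of all tested genes 7.26% were called lower.

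Counted over the 10 members, 2 were called higher (Zmat3 and Apaf1), 0 lower and 8 were not called, where a call needs a limma adjusted p under 0.05 and a log2 fold change beyond 0.75. Of all tested genes 2.64% were called higher and 7.26% lower. At an unadjusted limma p under 0.05, 3 members passed, Zmat3, Apaf1 and Phlda3, all higher in ME-KO. Of the 12461 tested genes 3509 passed at this level in either direction, a similar share. In 4 members (Mdm4, Zmat3, Phlda3 and Apaf1) all lines were above all MEC libraries, against 18.5% of all tested genes, and in 6 the groups overlapped. The median log2 fold change of the members was 0.72, against 0.01 for all tested genes, and 8 of 10 were above 0. The number called was 0 without MEC 1 and without MEC 2, 1 without MEC 3, 1 without line 336 and 5 without line 199. Over all tested genes 1234 were called with every library kept. In the settings just named, in the same order, 259, 301, 477, 954 and 1966 genes were called, so calls over all genes shifted as well. A change in the share of expressing cells and a change in RNA per cell cannot be told apart in these libraries.

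Each line was then set against the 3 MEC libraries, with 1 library per line, which is assumed to vary as MEC do. In line 199, 5 members were above every MEC library and 4 below, against 40.2% and 39.1% of all tested genes. In line 233 the counts were 8 and 1 (37.4% and 37.9% of all tested genes), and in line 336 they were 7 and 1 (39.2% and 37.4%). Over the members the median log2 difference from MEC was 0.05, 1.15 and 0.94 in lines 199, 233 and 336. Line 199 was the lowest of the 3 lines in 9 of 10 members, all but Sesn1, whereas it was the lowest of the lines in 35.1% of all tested genes.

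With the spread of the MEC libraries, 1 member was called higher in line 199 (Apaf1), 5 in line 233 (Mdm2, Mdm4, Ccng1, Phlda3 and Apaf1) and 4 in line 336 (Mdm2, Ccng1, Phlda3 and Apaf1). The shares of all tested genes called higher were 5.04%, 5.06% and 5.85%, and no member was called lower, against 7.94%, 10.3% and 11.1% of all tested genes. In line 233 the log2 difference was 2.26 for Mdm2 (limma adjusted p = 0.00787) and 1.82 for Ccng1 (limma adjusted p = 0.0372), and in line 336 it was 1.44 (limma adjusted p = 0.0145) and 2.01 (limma adjusted p = 0.0285). In line 199 the log2 difference of Trp53inp1 was -2.23, the largest decrease of any member, and did not pass (limma adjusted p = 0.0713). Zmat3, called between the groups, was not called in any single line, at limma adjusted p = 0.0946, 0.0532 and 0.0535 in lines 199, 233 and 336.

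These calls rest on few libraries. With the spread of both groups in place of that of MEC, 0 members were called in each line. The calls numbered 0 in every line without MEC 1, and 0, 1 and 0 in lines 199, 233 and 336 without MEC 2. Without MEC 3 they numbered 3, 7 and 6. Calls over all genes were not counted for single lines in these settings. The difference between lines was not tested, since each line is 1 library. Line 199 also stood apart from the other lines in its basal sum, which was within the MEC range. The fibroblast genes Col1a1, Col1a2, Col3a1, Pdgfra and Pdgfrb were above every MEC library in line 199 and not in the other lines. Dcn, Lum, Oxtr, Myh11 and Acta2 were below every MEC library in line 199 and also in lines 233 and 336. Among these genes Acta2 was far higher in line 199, at 719 FPKM, than in lines 233 and 336, at 1.13 and 1.29 FPKM. The part of these differences in the levels of the members was not tested.

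**Figure D3:**
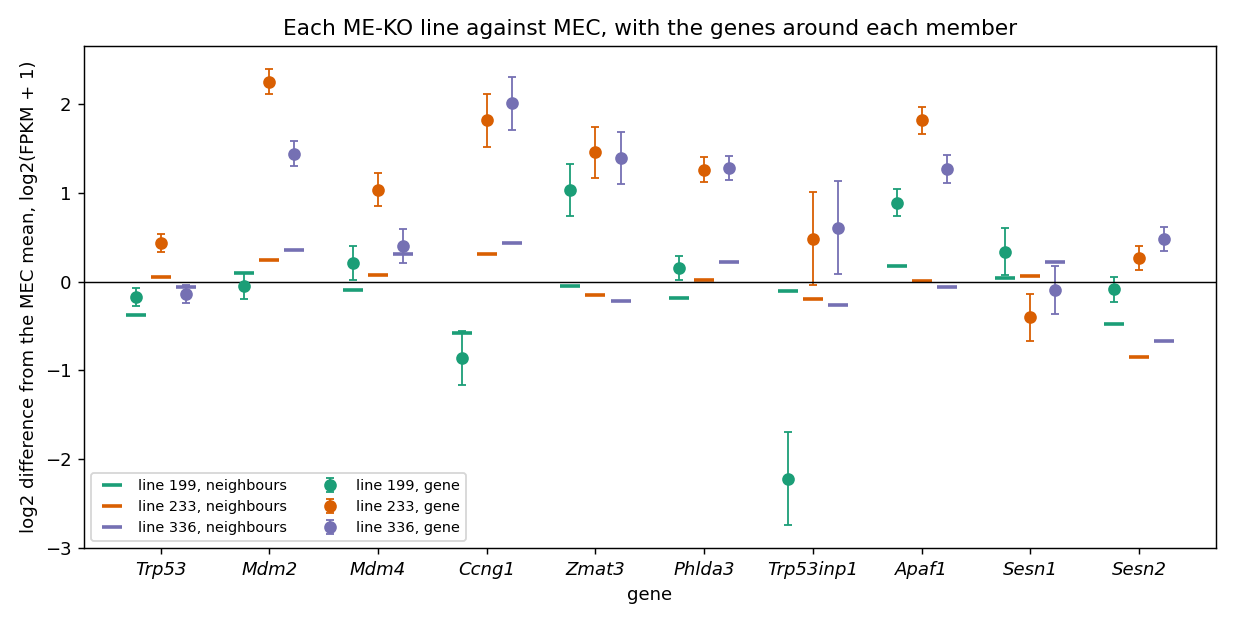
Difference of each ME-KO line from the MEC mean on the log2(FPKM + 1) scale for the 10 genes, as points with bars of 1 SE from the spread of MEC, and the median difference of the tested genes within 5 Mb of each member, as dashes. Mdm2 and Ccng1 in lines 233 and 336 lay between 1.44 and 2.26, above their neighbours, and Trp53inp1 in line 199 lay at -2.23.

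To see whether the genes around a member moved with it, the tested genes within 5 Mb on each side were taken. Around Mdm2, 37 neighbours had median log2 differences of 0.10, 0.25 and 0.35 in lines 199, 233 and 336. Mdm2 was above 37.8% of them in line 199 and above 94.6% in both lines 233 and 336. Around Ccng1, 15 neighbours had medians of -0.59, 0.31 and 0.43, which had the sign of Ccng1 in each line, and Ccng1 was above all of them in lines 233 and 336. The 34 neighbours of Zmat3 had medians between -0.21 and -0.05, and Zmat3 was above 97.1% of them in line 199 and all of them in the other lines. Apaf1 was above at least 92.7% of its 41 neighbours in each line. The 130 neighbours of Sesn2 had medians of -0.47, -0.86 and -0.67, while Sesn2 itself differed by -0.09, 0.26 and 0.48. Sesn2 was above 68.5%, 93.1% and 92.3% of them in lines 199, 233 and 336. The 31 neighbours of Trp53inp1 had a median of -0.10 in line 199, where Trp53inp1 was below all of them. In lines 233 and 336 Trp53inp1 was above 83.9% and 90.3% of them. For the remaining members the shares were as follows. Phlda3 was above 68.1%, 92.8% and 94.2% of its 69 neighbours in lines 199, 233 and 336, and Mdm4 above 67.6%, 87.8% and 59.5% of its 74. Trp53 was above 65.4%, 76.6% and 43.9% of its 107 neighbours, and Sesn1 above 70.3%, 24.3% and 29.7% of its 37. Copy number was not measured here. The paper reported many amplified and deleted chromosome segments in exome data of ME-KO tumor cell lines, which were not matched to the members.

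FPKM is per transcript length, so levels can be set against each other. In MEC the order of the mean FPKM was Trp53, Ccng1, Phlda3, Mdm2, Trp53inp1, Zmat3, Sesn2, Mdm4, Apaf1 and Sesn1. The libraries of neighbours in this order overlapped for Trp53 and Ccng1, for Ccng1 and Phlda3 and for Trp53inp1 and Zmat3, and the other neighbours were apart. In ME-KO the order was Ccng1, Mdm2, Phlda3, Trp53, Zmat3, Trp53inp1, Apaf1, Sesn2, Mdm4 and Sesn1, and only Trp53 and Zmat3, and Mdm4 and Sesn1, were apart. The single lines did not share this order, and in line 199 the first 4 ran the other way, with Trp53 at 87.4, Phlda3 at 84.2, Mdm2 at 55.1 and Ccng1 at 44.8 FPKM. For Mdm2 the mean was 57.2 ± 4.91 FPKM over MEC, against 163 ± 111 FPKM over the lines (SD, n = 3). For Ccng1 it was 83.8 ± 20.8 FPKM over MEC, against 224 ± 156 FPKM over the lines. In both genes the larger mean came with a larger spread.

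The other targets of p53 were read from lists written by hand. For these lists and the control list below, the shares of all tested genes were 2.64% called higher and 7.26% called lower. The median log2 fold change of all tested genes was 0.01, and their median log2 difference was 0.009, 0.002 and 0.02 in lines 199, 233 and 336. Among 17 tested genes of arrest and repair, 1 was called higher, Ckap2, a spindle protein (log2 fold change 1.37, SE 0.24, limma adjusted p = 0.0209), 0 lower and 16 were not called. The median log2 fold change was 0.37. Cdkn1a, the inhibitor of cyclin-dependent kinases through which p53 halts the cycle, had 85.2, 97.6 and 88.6 FPKM in MEC 1 to 3, and 73.8, 268 and 304 FPKM in lines 199, 233 and 336. Like Ccng1, it was below MEC in line 199 and above MEC in the other lines (log2 fold change 1.00, SE 0.53, limma adjusted p = 0.264). Over the list the median log2 difference was -0.23, 0.61 and 0.51 in lines 199, 233 and 336.

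Of 17 apoptosis targets, 2 were called higher, 1 lower and 14 were not called, with a median log2 fold change of 0.55. Bid, which links death receptors to the mitochondrion, had between 13.5 and 21.0 FPKM in MEC and between 38.2 and 47.6 FPKM in the lines (log2 fold change 1.43, SE 0.21, limma adjusted p = 0.0132). Pmaip1, the BH3-only protein Noxa, had between 13.01 and 19.7 FPKM in MEC, and 28.9, 81.1 and 90.4 FPKM in lines 199, 233 and 336 (log2 fold change 1.83, SE 0.44, limma adjusted p = 0.0498, close to the threshold). Dram1, a lysosomal membrane protein of autophagy, was the lower one, at between 3.91 and 5.12 FPKM in MEC and 1.84, 0.253 and 0.133 FPKM in the lines (limma adjusted p = 0.0398). Bax, the pore-forming effector, had 62.1, 60.3 and 67.9 FPKM in MEC, and 63.4, 179 and 195 FPKM in lines 199, 233 and 336. It lay within the MEC range in line 199 alone and did not pass between the groups (limma adjusted p = 0.176). Bbc3, the BH3-only protein Puma, had between 4.47 and 7.30 FPKM in MEC and 4.77, 9.45 and 10.6 FPKM in the lines (limma adjusted p = 0.425). The median log2 difference of the list was 0.17, 0.73 and 0.54 in lines 199, 233 and 336.

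Of 21 targets in metabolism and secretion, 2 were called higher, 3 lower and 16 were not called, with a median log2 fold change of -0.15. The higher genes were Tigar, which lowers glycolytic flux (log2 fold change 0.80, limma adjusted p = 0.0418), and Gpx1, a glutathione peroxidase (0.85, limma adjusted p = 0.0450). The lower genes were Cd82, a tetraspanin of the cell surface (log2 fold change -2.90, limma adjusted p = 0.00167), Ddit4, an inhibitor of mTORC1 (-1.69, limma adjusted p = 0.0158), and Aldh4a1, an enzyme of proline breakdown (-1.16, limma adjusted p = 0.0222). All 3 were below MEC in every line. The value for Aldh4a1 is that of a joint entry with Gm21969, Iffo2 and Tas1r2, and does not separate these genes.

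Among 32 tested genes that control p53, 1 was called higher, 0 lower and 31 were not called, with a median log2 fold change of 0.16. The one was Cdkn2a, the locus of the INK4a and ARF proteins, of which ARF restrains Mdm2. It had 2.23, 1.39 and 7.54 FPKM in MEC 1 to 3, and 159, 87.8 and 246 FPKM in lines 199, 233 and 336 (log2 fold change 5.24, SE 0.57, limma adjusted p = 0.00452). Cdkn2a was above every MEC library in all 3 lines. In line 199, Mdm2, Cdkn1a and Ccng1 were not above MEC. Apaf1, Zmat3, Bid, Ckap2 and Pmaip1, called higher between the groups, were above every MEC library in that line. Dram1, Ddit4 and Cd82, called lower, were below. The calls of these genes came from a fit that included line 199, so their side in that line partly follows from the choice. Of the 17 arrest and repair targets, line 199 was above every MEC library in 4 and below in 7. For the 17 apoptosis targets it was 8 and 6, and for the 21 in metabolism and secretion 7 and 10. The shares of all tested genes were 40.2% and 39.1%. The part of Cdkn2a in these levels was not tested. The gene-level value does not separate the transcripts of INK4a and ARF. Ppm1d, the phosphatase Wip1 that p53 induces and that dephosphorylates it, had between 3.91 and 4.45 FPKM in MEC and 5.27, 7.65 and 5.95 FPKM in the lines, all above MEC (limma adjusted p = 0.174).

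**Figure D4:**
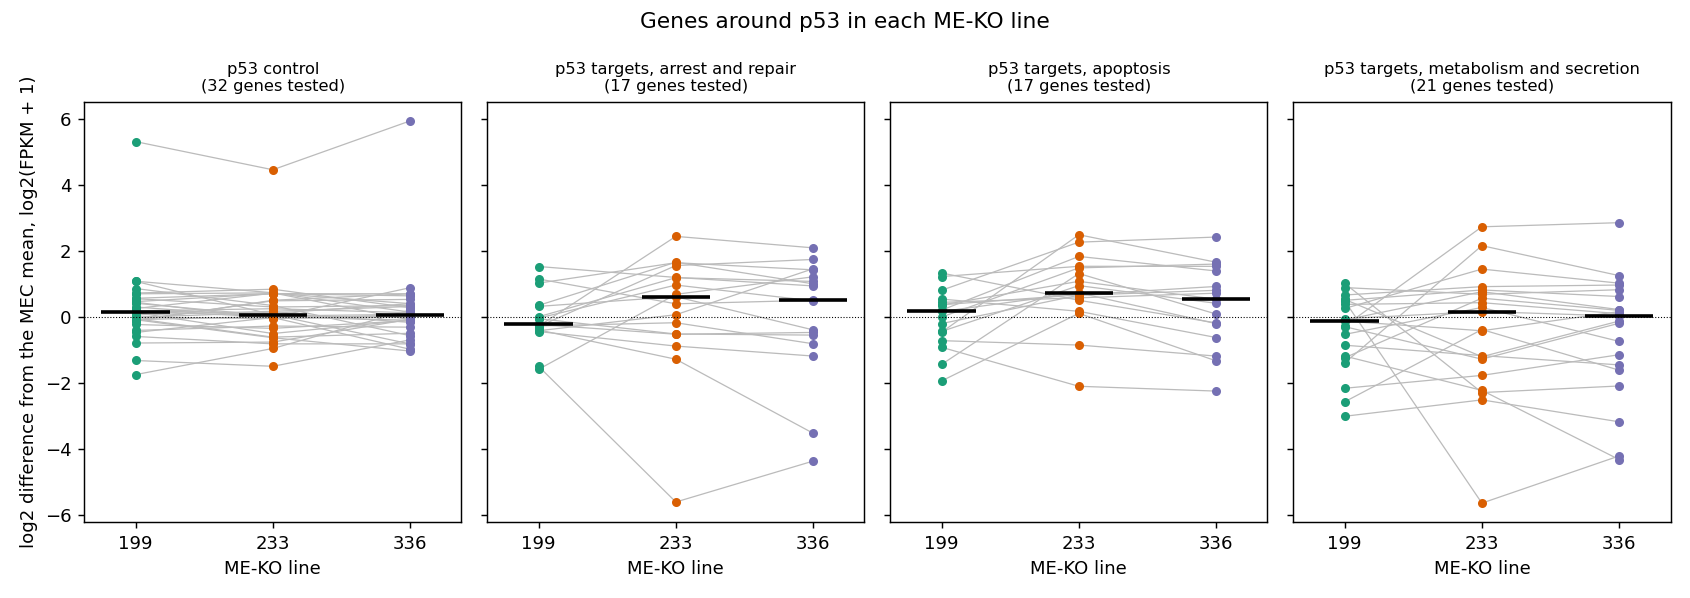
Difference of each ME-KO line from the MEC mean on the log2(FPKM + 1) scale for the tested genes of 4 lists around p53, 1 point per gene, with grey lines joining a gene and black bars at the median of the list. The median of the arrest and repair list was -0.23, 0.61 and 0.51 in lines 199, 233 and 336, and the highest points of the control list are Cdkn2a.

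The genes whose pattern over the 6 libraries was most like that of a member were found by Pearson correlation of log2(FPKM + 1). For Trp53 they were Lrrc45 (r = 0.997), the joint entry of Ipo4 and Tm9sf1 (r = 0.996) and Asb2 (r = 0.994). For Mdm2 they were Fam122b (r = 0.997), Orc5 (r = 0.994) and Pmm1 (r = 0.994). With 6 libraries such values are common, as 30 genes exceeded 0.95 for Trp53 and 114 for Mdm2, and line 233 was the highest library for both members and for each gene named here.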

How the data were processed

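RNA-seq libraries of 3 MEC preparations and 3 ME-KO lines were analysed, grouped by the genotypes and titles in the labels. The deposited FPKM values were computed by the authors with Cufflinks (2.2.1), from paired-end reads that Trimmomatic had trimmed and TopHat2 (2.0.14) with Bowtie2 had mapped to the mouse build mm10. The strand of the libraries is not given in the sources used here. FPKM carries no read numbers, so only relative depth was read from small values, and low genes are the least precise. GENCODE M21 exons of other genes did not overlap exons of the members.

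Values were tested as log2(FPKM + 1) with limma 3.58.1 in R 4.3.3, after a filter of a mean FPKM of at least 1, with a trended empirical Bayes step and Benjamini-Hochberg adjustment over 12461 genes. Genes with an adjusted p under 0.05 and a log2 fold change beyond 0.75 were called. Each line was also fitted against MEC with the spread of MEC. The fits were also run on simulated data in which MEC and the lines had the same spread, so a difference in spread between them was not covered. Exact permutation tests were two-sided.

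The members and the gene lists, written by hand from general knowledge, were chosen with earlier results of these data known. Named genes were the members, Mapk8 and Mapk9, a set of central p53 genes, up to 6 called genes of each list by size of change and the 3 genes most alike to Trp53 and Mdm2. Other genes in the text are cell markers. The values of 1 gene under this rule are not reported here. Of 33 control genes, Usp10 was not analysed here. Separate cultures or lines stand behind each library, and no sequencing batch is given in the labels. The comparison the authors made with Cuffdiff was not repeated.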

Additional observations from a re-analysis of the deposited data

Results flagged for a closer look

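In 3 members all 3 ME-KO lines lay outside the MEC range, and not all on the same side. The share of all tested genes with this pattern was not counted. Single lines were above every MEC library in 37.4% to 40.2% of all tested genes and below in 37.4% to 39.1%. For Trp53 the log2 differences from the MEC mean were -0.17, 0.44 and -0.14 in lines 199, 233 and 336. For Ccng1 they were -0.86, 1.82 and 2.01 in the same lines, and for Sesn2 they were -0.089, 0.26 and 0.48. The difference between lines was not tested, since each line is 1 library.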

How the results depend on the processing

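The number of genes called was 1234, and it was 738 with a mean FPKM of at least 5 and 1978 with array weights. It was between 259 (without MEC 1) and 1966 (without line 199) when 1 library was left out. The number of members called was 2, and it was 4 with array weights, which added Mdm2 and Phlda3, and between 0 and 5 when 1 library was left out. Members called in line 199 numbered 1, and 0 with upper-quartile scaling and with the spread of both groups. In line 233 they numbered 5, with 3 without a filter on low values and 0 with the spread of both groups, and in line 336 they numbered 4, with 0 for the spread of both groups. With 1 MEC library left out the ranges were 0 to 3, 0 to 7 and 0 to 6 in lines 199, 233 and 336. The log2 fold change of Zmat3 was called in 12 of 14 alternatives with a test and that of Apaf1 in 10 of 14, with limma adjusted p from 0.00344 to 0.0921 and from 0.00547 to 0.112. In 3 members that were not called the direction turned. Sesn1 was 0.21 with quantile normalization, with -0.25 to 0.12 when 1 library was left out. Trp53 was -0.019 with upper-quartile scaling, with -0.16 to 0.15 when 1 library was left out. Trp53inp1 was 0.36 with array weights, with -0.87 to 0.54 when 1 library was left out. The cause was not tested. No paired analysis was possible because the groups share no replicate numbers. The other alternatives, a pseudocount of 0.1, no variance trend and adjusted p alone, kept the counts of calls within 1.5 times. FPKM without read numbers sets no detection limit for low genes.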
